A study of Mus musculus with 20 samples.

Results

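The glycolysis enzymes from the aldolase step to enolase were followed together with glucose-6-phosphate isomerase, which acts earlier in the pathway, before phosphofructokinase. They were taken as the 10 rows of the expression table, out of 48440, whose Ensembl identifiers belong to Gpi1, Aldoa, Aldoc, Tpi1, Gapdh, Pgk1, Pgam1, Eno1, Eno2 and Eno3. The genes were chosen by name, with earlier results of these data known. Of the 10, 9 passed the filter on low values (at least 0.5 RPKM in at least 2 libraries), and Aldoc did not.

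In glycolysis, glucose is split into triose phosphates that are oxidised to pyruvate, with a net gain of ATP. Gpi1 converts glucose 6-phosphate to fructose 6-phosphate. After phosphofructokinase has acted, the aldolases Aldoa and Aldoc cut fructose 1,6-bisphosphate into triose phosphates, which Tpi1 interconverts. Gapdh makes NADH and 1,3-bisphosphoglycerate, Pgk1 makes the first ATP of the lower pathway, Pgam1 moves the phosphate group, and the enolases Eno1, Eno2 and Eno3 form phosphoenolpyruvate. Aldoa is the aldolase of most tissues and Aldoc that of brain. Eno1 is the enolase of most tissues, Eno2 that of neurons and Eno3 that of muscle. In fat cells glycolysis supplies lactate and the glycerol backbone of triglyceride, and many of its genes are known targets of hypoxia-inducible factor.

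The cells were 3T3-L1 adipocytes, a preadipocyte line derived from Swiss mouse embryos and turned into fat cells in culture with 10 µM troglitazone, insulin at 5 µg/ml, the phosphodiesterase inhibitor IBMX at 0.5 mM and dexamethasone at 1 µM. All groups then had insulin alone from day 4 and growth medium from day 6. Foxk1 and Foxk2 are paralogous forkhead transcription factors. There were 3 libraries of cells labelled Foxk1 overexpression against 3 with empty vector, and 3 with a short hairpin RNA (shRNA) to Foxk1 against 3 with scrambled shRNA. For Foxk2 there were 2 overexpression libraries against 2 with empty vector, and 2 with Foxk2 shRNA against 2 with scrambled shRNA. Each manipulation had its own control libraries. The labels do not say whether libraries came from separate cultures, and the spread behind the p-values may be technical.

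Promoters of 4 of the genes are shown. Pgk1 was chosen because its RNA moved most under knockdown, by the genes' own rows with copies not added. Aldoa and Pgam1 are 1 main isozyme on each side of it in the pathway. Eno3 is the enolase that was lower under both overexpression labels. Each promoter is the RefSeq window of 300 bases in GRCm38.p6, from 250 bases before the start of a transcript, on the strand of the gene. Every ACGTG or its reverse complement CACGT (the core letters of the hypoxia response element) is in capitals.
Pgk1, chrX:106186850-106187149, plus strand: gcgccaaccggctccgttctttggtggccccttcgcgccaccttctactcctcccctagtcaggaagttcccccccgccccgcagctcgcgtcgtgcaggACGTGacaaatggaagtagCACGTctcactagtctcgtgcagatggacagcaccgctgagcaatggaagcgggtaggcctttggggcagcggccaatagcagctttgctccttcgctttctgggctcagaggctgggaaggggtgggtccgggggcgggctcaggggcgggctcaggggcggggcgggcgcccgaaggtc
Pgam1, chr19:41911621-41911920, plus strand: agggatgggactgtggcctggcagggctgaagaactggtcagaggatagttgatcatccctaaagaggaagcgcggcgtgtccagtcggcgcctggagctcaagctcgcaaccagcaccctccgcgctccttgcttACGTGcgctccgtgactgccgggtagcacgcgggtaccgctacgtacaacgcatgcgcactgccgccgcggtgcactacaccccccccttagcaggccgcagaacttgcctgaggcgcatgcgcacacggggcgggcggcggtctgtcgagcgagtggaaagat
Aldoa, chr7:126799205-126799504, minus strand: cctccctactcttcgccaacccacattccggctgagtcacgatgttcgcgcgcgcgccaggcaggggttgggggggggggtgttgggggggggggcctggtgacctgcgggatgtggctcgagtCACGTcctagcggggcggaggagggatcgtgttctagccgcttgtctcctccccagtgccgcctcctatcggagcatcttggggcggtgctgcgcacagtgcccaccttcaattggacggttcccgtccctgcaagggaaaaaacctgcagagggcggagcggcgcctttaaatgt
Eno3, chr11:70656926-70657225, plus strand: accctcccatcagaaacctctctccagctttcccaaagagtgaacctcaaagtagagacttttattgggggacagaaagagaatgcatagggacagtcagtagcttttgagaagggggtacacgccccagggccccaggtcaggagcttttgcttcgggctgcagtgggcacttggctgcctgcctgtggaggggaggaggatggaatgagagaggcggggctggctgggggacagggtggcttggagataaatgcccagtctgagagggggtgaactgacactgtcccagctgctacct
The Pgk1 window holds 2 matches, with their first bases at positions -150 and -131 from the transcript start, the Pgam1 window a match at -114 and the Aldoa window shown a match at -126. Aldoa has 3 such windows, for different transcript starts. An overlapping one holds the same site, at -202 from its own start, and the one farthest upstream holds none. The Eno3 window holds none. Over all 15 windows of the 10 genes, ACGTG was found on either strand for 5 genes (Aldoa, Aldoc, Gapdh, Pgk1 and Pgam1), against 21.8% of 27025 genes with a window in the RefSeq table. The forkhead letters GTAAACA (reverse complement TGTTTAC) were found for 1 of the 10, Aldoc, against 4.05% of those genes. ACGTG was not found for Gpi1, Tpi1, Eno1, Eno2 or Eno3. Of these, Gpi1, Tpi1 and Eno1 were higher under both overexpression labels and lower in Foxk1 knockdown, as were Aldoa, Gapdh, Pgk1 and Pgam1. The matches found are letters in a window and not measured binding sites.

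Assigned reads numbered 16739717 to 20772784 per library in the Foxk1 set and 31378044 to 36156845 in the Foxk2 set, and mitochondrial genes took 3.79 to 7.80% of them. That share was 6.25 to 6.61% in Foxk1 knockdown against 5.48 to 6.05% in its controls. In Foxk2 knockdown it was 4.85 and 6.72% against 4.02 and 3.79% in its controls. It was 4.91 to 5.26% in the libraries labelled Foxk1 overexpression against 4.91 to 5.22% in their controls. In Foxk2 overexpression it was 7.80 and 5.135% against 7.09 and 6.42% in its controls. The part of this share in the results was not tested. By chi-square per degree of freedom over genes, which grows with depth, replicates differed most in Foxk2 overexpression and Foxk2 knockdown (47.3 and 29.3, against 2.64 to 10.1 in the other groups). The correlation of log2 values between replicates was 0.994 in both, against 0.995 in the Foxk2 controls and 0.989 to 0.992 in the Foxk1 groups. Both measures depend on depth. All 12 adipocyte markers listed were measured, with summed levels of 7770 to 14143 RPKM. Foxk1 averaged 3.25 ± 0.265 RPKM in Foxk1 knockdown and 8.32 ± 0.424 RPKM in its controls (SD, n = 3 each). In the libraries labelled Foxk1 overexpression it was not raised, at 6.10 ± 0.0553 RPKM against 7.55 ± 0.468 RPKM in empty-vector libraries (SD, n = 3 each; log2 fold change -0.28 ± 0.055 SE, adjusted p = 0.000515), so directions drawn from these libraries rest on the label. Foxk2 in the same libraries averaged 13.9 ± 0.334 RPKM against 11.3 ± 0.294 RPKM (SD, n = 3 each; adjusted p = 2.68e-05). Foxk2 was lower in Foxk1 knockdown, at 9.57 ± 0.668 RPKM against 11.0 ± 0.237 RPKM in its controls (SD, n = 3 each; adjusted p = 0.00156, and 0.0557 in a model of those libraries alone). Foxk2 averaged 19.96 ± 0.0356 RPKM in Foxk2 overexpression and 13.4 ± 0.123 RPKM in its controls, and 3.27 ± 0.0271 RPKM in Foxk2 knockdown and 12.9 ± 0.282 RPKM in its controls (SD, n = 2 each). In the Foxk2 set Foxk1 averaged 7.14 ± 0.227 RPKM in overexpression and 11.6 ± 0.0573 RPKM in its controls, and 12.7 ± 0.201 RPKM in knockdown and 10.2 ± 0.648 RPKM in its controls (SD, n = 2 each).

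All 7 main isozymes were higher under both overexpression labels and lower in Foxk1 knockdown, and 5 of the 7 were lower in Foxk2 knockdown. Of 9 enzyme genes tested, 7 were higher, 1 was lower (Eno3) and 1 did not pass (Eno2) in the libraries labelled Foxk1 overexpression, where 47.8% of all 15981 genes tested were called, 24.1% as higher and 23.8% as lower. In Foxk1 knockdown 7 were lower, none was higher and 2 did not pass (Eno2 and Eno3), where 35.9% of all genes were called, 20.4% as higher and 15.5% as lower. In Foxk2 overexpression 7 were again higher, Eno3 was lower and Eno2 did not pass, where 45% of all genes were called, 23% as higher and 22% as lower. In Foxk2 knockdown 5 were lower (Aldoa, Tpi1, Pgk1, Pgam1 and Eno1), 2 were higher (Eno2 and Eno3) and Gpi1 and Gapdh did not pass, where 33.7% of all genes were called, 15.7% as lower and 18% as higher. Whether the libraries of a manipulation and its controls overlapped was also counted. In the libraries labelled Foxk1 overexpression 7 enzyme genes lay above and 1 below all controls, where 52.3% of all genes lay apart, 26.4% above and 25.8% below. Foxk1 knockdown put 7 below and none above, where 44.2% of all genes lay apart, 25.3% above and 18.9% below. Foxk2 overexpression put 7 above and 1 below, where 70.3% lay apart, 36.2% above and 34.1% below. Foxk2 knockdown put 2 above and 6 below, where 67.2% lay apart, 34.7% above and 32.5% below. A gene was called where the adjusted p, in limma over all genes tested, was under 0.05.

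The median log2 fold change of the 9 genes was 1.02 in the libraries labelled Foxk1 overexpression, -0.90 in Foxk1 knockdown, 1.00 in Foxk2 overexpression and -0.22 in Foxk2 knockdown. Over all genes tested the medians were 0, 0.017, 0.0016 and 0 in the same order of comparisons. Among the 7 enzymes other than Aldoc, Eno2 and Eno3, folds lay between 1.72 and 2.45 in the libraries labelled Foxk1 overexpression, 0.388 and 0.663 in Foxk1 knockdown, 1.38 and 2.61 in Foxk2 overexpression, and 0.614 and 0.943 in Foxk2 knockdown. Fold changes are on the log2(RPKM + 0.5) scale, which understates those of low genes. In these bulk cultures, fewer cells of a type and less RNA per cell cannot be told apart.

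**Figure D1:**
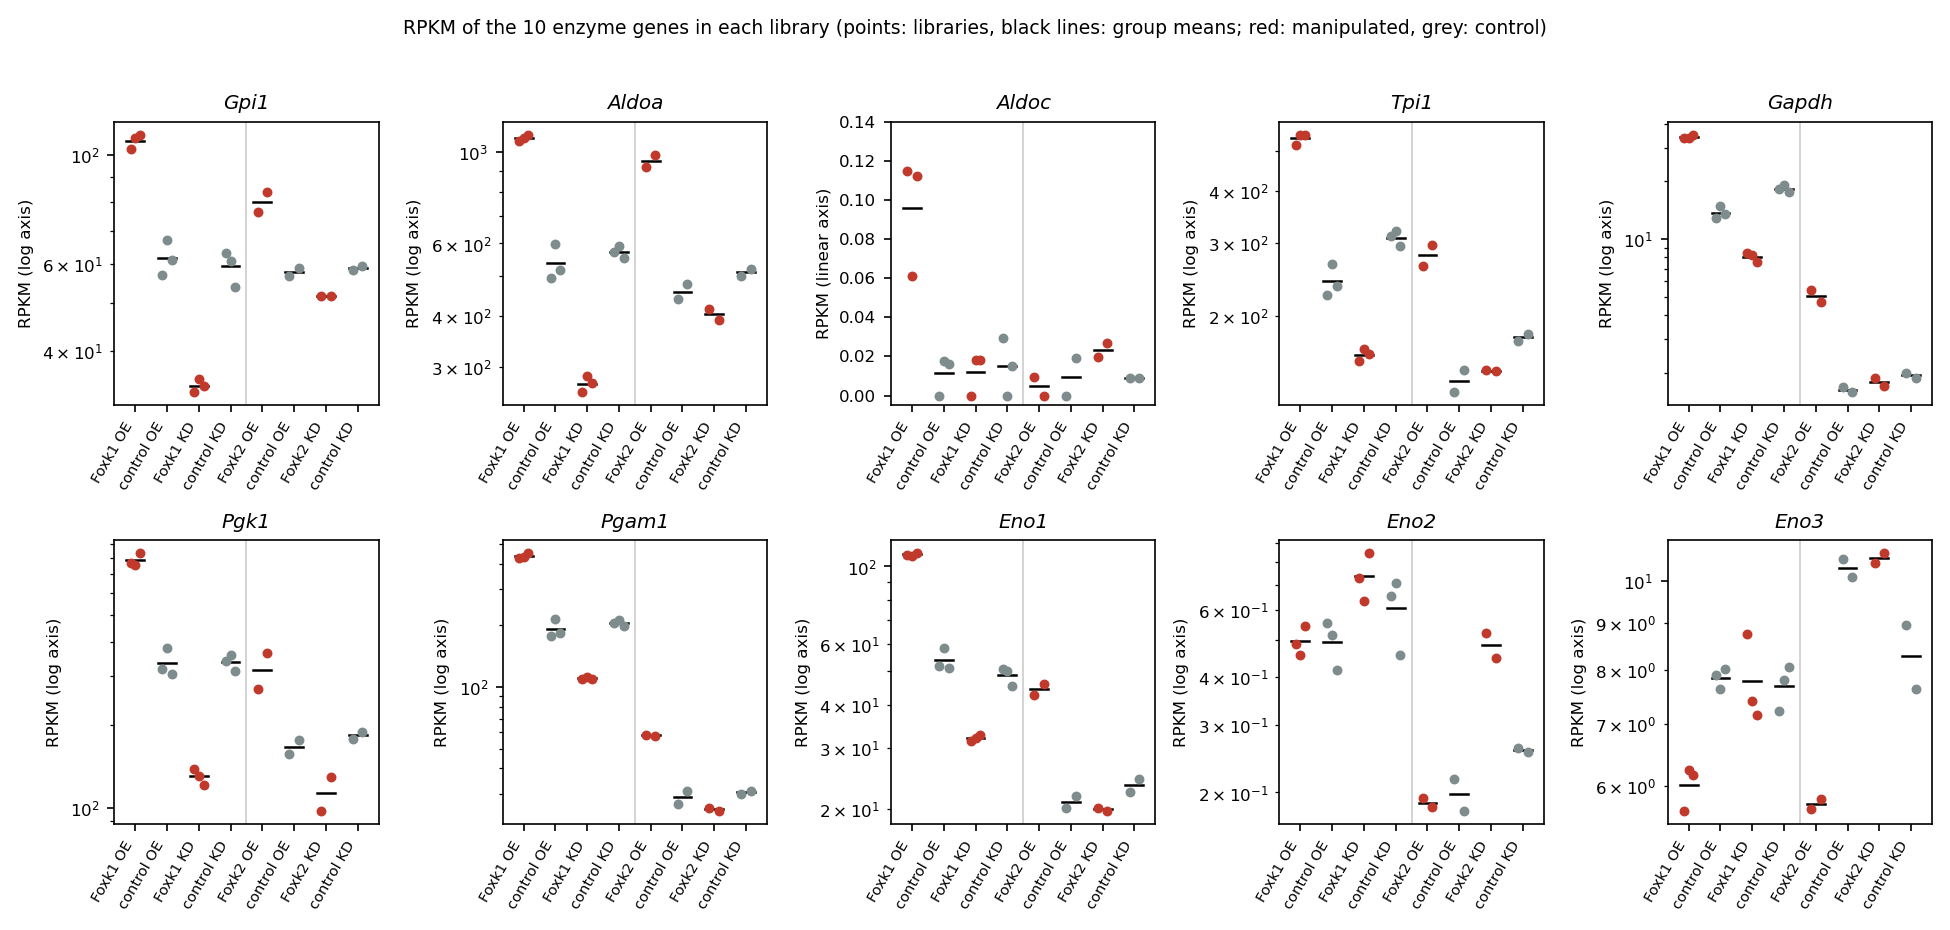
RPKM of each of the 10 enzyme genes in each library, on a log axis except for Aldoc (linear), with manipulated libraries in red left of their controls in grey; points are libraries, black lines group means, and Foxk1 OE stands for libraries labelled Foxk1 overexpression. Aldoa lies at 1067 to 1103 RPKM in the libraries labelled Foxk1 overexpression against 495.5 to 599.5 RPKM in their controls, while Eno3 lies below its controls in both overexpression sets.

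The 2 sets of libraries differed in level before any manipulation, and the reads on near-identical copies differed too. Copies were sought as other annotated genes sharing at least 100 bases at 99% identity with the gene's main transcript. Gapdh had 24 such rows in the table, together covering 94.2% of its transcript, Eno1 had 2 (85.6%), Pgk1 2 (68.8%), Pgam1 1 (43.1%) and Gpi1 1 (9.26%). Aldoa, Aldoc, Tpi1, Eno2 and Eno3 had none. Levels of Gapdh, Eno1, Pgk1, Pgam1 and Gpi1 are therefore uncertain, since counting may have split their reads or left them out.

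Of the reads on Gapdh and its copies together, the copies took 93.8 to 95.8% in libraries of the Foxk1 groups and 73.6 to 83.4% in those of the Foxk2 groups. The processed pseudogene Gm7336 alone ranged from 183 to 1152 RPKM in the Foxk1 set and from 0.539 to 2.77 RPKM in the Foxk2 set. For Eno1, the copies Eno1b and Gm4735 took 42.7 to 46.4% of reads in the Foxk1 set, against at most 28% in the Foxk2 set, and Gm4735 lay at 44.1 to 186 RPKM in the Foxk1 groups and at 0.0425 RPKM or less in the Foxk2 groups. Gm26762, a non-coding gene on the opposite strand inside Gpi1, took 19 to 21% of the reads on Gpi1 and itself in the Foxk1 set and at most 0.181% in the Foxk2 groups. For Pgk1 the share was at most 0.692% and for Pgam1 at most 3.81%. Levels set side by side across the sets are descriptions, without a test.

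With the reads of the copies added, the Gapdh sum was higher by a log2 fold change of 1.21 ± 0.090 in the libraries labelled Foxk1 overexpression, lower by -1.50 ± 0.090 in Foxk1 knockdown, and higher by 1.17 ± 0.11 in Foxk2 overexpression (SE). In Foxk2 knockdown the Gapdh sum passed as lower (-0.33 ± 0.11 SE, adjusted p = 0.031), where Gapdh alone did not. The Gapdh sum ranged from 133 to 716 RPKM in the Foxk1 groups but from 8.21 to 22.0 RPKM in the Foxk2 groups. Adding copies thus did not bring the sets to like levels, and whether the sum holds all Gapdh reads was not tested. The Eno1 sum gave 1.01 ± 0.065, -0.63 ± 0.065 and 1.06 ± 0.080 (SE) in the first 3 of these comparisons. In Foxk2 knockdown it did not pass (-0.20 ± 0.080 SE, adjusted p = 0.0727), where Eno1 alone did.

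**Figure D2:**
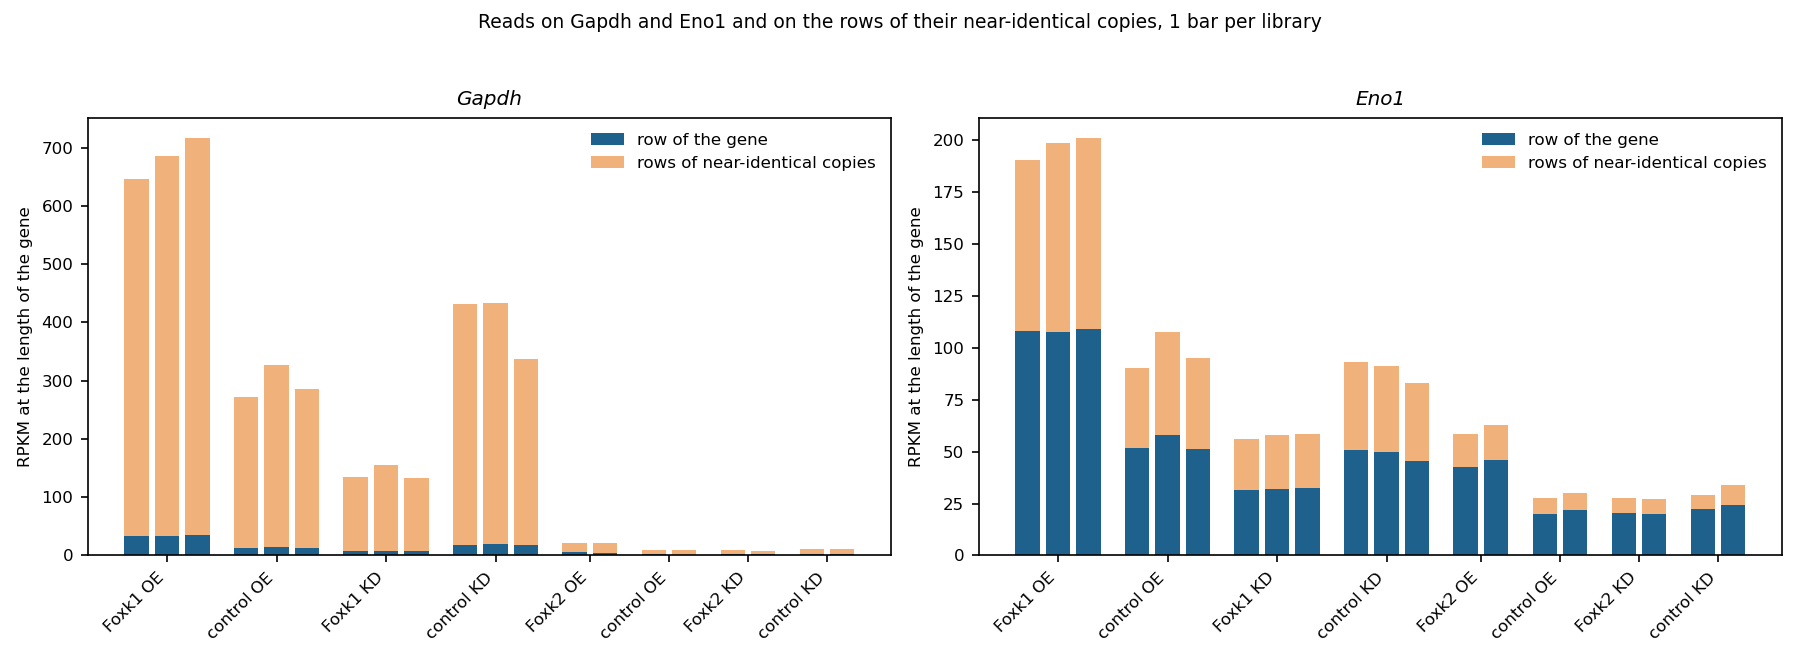
Reads on the rows of Gapdh (left) and Eno1 (right) and on the rows of their near-identical copies, expressed as RPKM at the length of the gene, with 1 bar per library and manipulated libraries left of their controls. The copies take 93.8 to 95.8% of the Gapdh total in the Foxk1 groups and 42.7 to 46.4% of the Eno1 total.

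By level per length, with each gene on its own row and copies not added, Aldoa was the highest of the 10 in all 8 groups and Aldoc the lowest. In 6 of the groups the order then ran Pgk1, Tpi1, with Tpi1 above Pgk1 in both knockdown groups, and the ranges of Pgk1 and Tpi1 overlapped in Foxk2 overexpression and in both scrambled-shRNA groups. Pgam1 came next in the Foxk1 groups, and Gpi1 in the Foxk2 groups. Eno1 and Gpi1 overlapped in the libraries labelled Foxk1 overexpression and in their controls, and Gapdh and Eno3 overlapped in Foxk1 knockdown. Eno2 was the ninth of 10 in each group. With its copies added, Gapdh ranged from 338 to 433 RPKM in the Foxk1 scrambled-shRNA libraries, overlapping Pgk1 there (314 to 358 RPKM), so its place holds for its own row alone.

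On the genes' own rows, copies not added, Aldoa held 34.5 to 37.5% of the summed RPKM of the 10 genes in libraries of the Foxk1 groups and 50.4 to 56.1% in those of the Foxk2 groups. These shares depend on the reads on copies. In the Foxk1 control libraries Gapdh had 12.8 to 19.1 RPKM on its own row and 271 to 433 RPKM with copies. The sum over the own rows of the 10 genes was 3034 to 3195 RPKM in the libraries labelled Foxk1 overexpression against 1345 to 1610 RPKM in their controls, and 746 to 778 RPKM in Foxk1 knockdown against 1484 to 1618 RPKM in its controls. It was 1644 to 1842 RPKM in Foxk2 overexpression against 843 to 926 RPKM in its controls, and 771 to 777 RPKM in Foxk2 knockdown against 974 to 1016 RPKM in its controls. The sums did not overlap between a manipulation and its controls in any of the 4 comparisons.

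Gpi1 (ENSMUSG00000036427.5, chromosome 7, 34201330 to 34230336, minus strand, mm10) showed the smallest rise of the 7 main isozymes under both overexpression labels. It ranged from 103 to 109.8 RPKM in the libraries labelled Foxk1 overexpression against 57.1 to 67.2 RPKM in their controls (log2 fold change 0.79 ± 0.060 SE, adjusted p = 3.47e-08). In Foxk1 knockdown it ranged from 32.9 to 35.1 RPKM against 54.0 to 63.1 RPKM in its controls (-0.79 ± 0.060, adjusted p = 7.31e-08). In Foxk2 overexpression the 2 libraries had 76.6 and 83.9 RPKM against 56.9 and 58.8 RPKM (0.47 ± 0.074, adjusted p = 8.34e-05). In Foxk2 knockdown both libraries had 51.7 RPKM against 58.4 and 59.3 RPKM in scrambled-shRNA libraries. The 4 values did not overlap, but the difference missed the threshold (-0.19 ± 0.074, adjusted p = 0.0659), and it passed with 6 other choices of processing.

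Aldoa (ENSMUSG00000030695.14, chromosome 7, 126795234 to 126800751, minus strand), the aldolase of most tissues, had 1067, 1085 and 1103 RPKM in the libraries labelled Foxk1 overexpression, against 495.5, 599.5 and 516 RPKM in empty-vector libraries. It had 261, 286 and 274 RPKM in Foxk1 knockdown, against 572, 590.2 and 553 RPKM in scrambled-shRNA libraries. The level was higher under the overexpression label and lower in knockdown, with no overlap, with log2 fold changes of 1.02 ± 0.061 (SE, adjusted p = 2.1e-09) and -1.06 ± 0.061 (adjusted p = 4.25e-09). In the Foxk2 set it had 922 and 985 RPKM in overexpression against 439 and 477 RPKM in its controls, and 415 and 391 RPKM in knockdown against 501 and 521 RPKM in its controls. The rise in Foxk2 overexpression was 1.06 ± 0.075 (adjusted p = 1.8e-08), and the fall in Foxk2 knockdown was smaller, at -0.34 ± 0.075 (adjusted p = 0.00209). The gene shares 3084 bases with Fam57b on the opposite strand, which ranged from 0.672 to 4.66 RPKM, and whether counting used strand is not given in the sources used here.

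Aldoc (ENSMUSG00000017390.15, chromosome 11, 78322968 to 78327781, plus strand), the brain aldolase, was at or near the limit of detection. It had 7, 4 and 7 reads in the libraries labelled Foxk1 overexpression and 0, 1 and 1 reads in their controls. In the other 14 libraries it had 0 to 3 reads. The highest level was 0.115 RPKM, and it was not tested in the main model, where a count of 0 allows up to 3 reads in a library. In a model without a filter the difference in the libraries labelled Foxk1 overexpression passed (log2 fold change 0.22 ± 0.032 SE on the log2(RPKM + 0.5) scale, adjusted p = 0.000123), on 18 reads against 2.

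Tpi1 (ENSMUSG00000023456.14, chromosome 6, 124810586 to 124814296, minus strand), triose-phosphate isomerase, ranged from 516 to 546 RPKM in the libraries labelled Foxk1 overexpression against 225 to 266 RPKM in their controls (log2 fold change 1.15 ± 0.062 SE, adjusted p = 7.05e-10). In Foxk1 knockdown it ranged from 156 to 166 RPKM against 294 to 319.8 RPKM in its controls (-0.94 ± 0.062, adjusted p = 1.94e-08). The Foxk2 overexpression libraries had 264 and 296 RPKM against 131 and 148 RPKM (1.00 ± 0.077, adjusted p = 4.05e-08). Foxk2 knockdown libraries had 148 and 147 RPKM against 173 and 181 RPKM (-0.27 ± 0.077, adjusted p = 0.0131). That call was lost without scrambled-shRNA library 2 (adjusted p = 0.0956) or knockdown library 1 (0.054) or 2 (0.062), and in a model of the Foxk2 groups alone (0.0578). Tpi1 had no copy at 99% identity, and a further pseudogene, Tpi-rs11, shared 310 bases at 95% identity.

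Gapdh (ENSMUSG00000057666.18, chromosome 6, 125161715 to 125166467, minus strand), glyceraldehyde-3-phosphate dehydrogenase, had 33.9, 33.8 and 35.1 RPKM in the libraries labelled Foxk1 overexpression, against 12.8, 14.8 and 13.5 RPKM in empty-vector libraries. It had 8.42, 8.21 and 7.60 RPKM in Foxk1 knockdown, against 18.3, 19.1 and 17.5 RPKM in scrambled-shRNA libraries. These groups lay well apart, with log2 fold changes of 1.29 ± 0.060 (SE, adjusted p = 1.32e-10) and -1.13 ± 0.060 (adjusted p = 2.13e-09). In the Foxk2 set the row held far fewer reads, 209 to 741 per library, with 5.43 and 4.68 RPKM in overexpression against 1.67 and 1.58 RPKM in its controls (1.38 ± 0.074, adjusted p = 9.18e-10). In Foxk2 knockdown it had 1.88 and 1.71 RPKM against 1.99 and 1.88 RPKM in its controls. There the ranges overlapped and the difference did not pass (-0.085 ± 0.074, adjusted p = 0.443). Gapdh is a common normaliser in such cultures, and 3 of the 4 comparisons called it.

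Pgk1 (ENSMUSG00000062070.12, chromosome X, 106187100 to 106203699, plus strand), phosphoglycerate kinase, had 773, 759 and 835 RPKM in the libraries labelled Foxk1 overexpression, against 318, 381 and 306 RPKM in empty-vector libraries. It had 139, 131 and 122 RPKM in Foxk1 knockdown, against 340.3, 358 and 314 RPKM in scrambled-shRNA libraries. By the genes' own rows, the fall in Foxk1 knockdown was the largest of the enzyme genes there (log2 fold change -1.37 ± 0.12 SE, adjusted p = 2.38e-07). With its copies added, Gapdh fell more there (-1.50). Pgk1 rose by 1.24 ± 0.12 under the overexpression label (adjusted p = 3.43e-07). In Foxk2 overexpression it had 269 and 364 RPKM against 158 and 177 RPKM (0.90 ± 0.14, adjusted p = 8.18e-05). In Foxk2 knockdown it had 97.7 and 129 RPKM against 178 and 188 RPKM (-0.70 ± 0.14, adjusted p = 0.00118), the largest change of the 9 in that comparison. The 2 manipulated libraries differed from each other in both Foxk2 comparisons, and in models of these libraries alone neither passed (adjusted p = 0.0501 in overexpression and 0.0721 in knockdown).

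Pgam1 (ENSMUSG00000011752.6, chromosome 19, 41911923 to 41918660, plus strand), phosphoglycerate mutase, ranged from 428 to 449.7 RPKM in the libraries labelled Foxk1 overexpression against 177 to 215 RPKM in their controls (log2 fold change 1.19 ± 0.062 SE, adjusted p = 3.96e-10). In Foxk1 knockdown it ranged from 109 to 112 RPKM against 199 to 212 RPKM in its controls (-0.90 ± 0.062, adjusted p = 2.54e-08). The level in the Foxk2 set was several times lower, with 58.4 and 57.6 RPKM in overexpression against 26.8 and 31.0 RPKM in its controls (1.00 ± 0.075, adjusted p = 3.77e-08). Foxk2 knockdown libraries had 25.8 and 24.7 RPKM against 30.02 and 31.1 RPKM (-0.27 ± 0.075, adjusted p = 0.0109), a call lost without scrambled-shRNA library 2 (adjusted p = 0.0799) or knockdown library 2 (0.0775). The rises under the overexpression labels were not shown to differ (0.19 ± 0.097 SE, adjusted p = 0.168).

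Eno1 (ENSMUSG00000063524.13, chromosome 4, 150236721 to 150248879, plus strand), the enolase of most tissues, had 108, 107 and 109 RPKM in the libraries labelled Foxk1 overexpression, against 51.6, 58.1 and 51.1 RPKM in empty-vector libraries (log2 fold change 1.01 ± 0.053 SE, adjusted p = 4.87e-10). It had 31.4, 32.0 and 32.7 RPKM in Foxk1 knockdown, against 50.6, 50.01 and 45.3 RPKM in scrambled-shRNA libraries (-0.59 ± 0.053, adjusted p = 4.21e-07). That fall was the smallest of the 7 main isozymes in Foxk1 knockdown. In the Foxk2 set it had 42.7 and 45.9 RPKM in overexpression against 20.2 and 21.8 RPKM in its controls (1.06 ± 0.065, adjusted p = 3.91e-09). Foxk2 knockdown libraries had 20.2 and 19.7 RPKM against 22.5 and 24.4 RPKM (-0.22 ± 0.065, adjusted p = 0.0141). That call was lost without scrambled-shRNA library 2 (adjusted p = 0.152) or knockdown library 2 (0.0813), in a model of those libraries alone (0.0659), and with copies added.

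Eno3 (ENSMUSG00000060600.15, chromosome 11, 70657202 to 70662513, plus strand), the muscle enolase, was lower where Eno1 was higher, under both overexpression labels. It had 5.63, 6.25 and 6.16 RPKM in the libraries labelled Foxk1 overexpression, against 7.91, 7.63 and 8.03 RPKM in empty-vector libraries (log2 fold change -0.36 ± 0.069 SE, adjusted p = 0.000469). It had 5.66 and 5.81 RPKM in Foxk2 overexpression, against 10.6 and 10.1 RPKM in its controls (-0.80 ± 0.085, adjusted p = 1.48e-06). The manipulated libraries lay below their controls in both cases. In Foxk1 knockdown it had 8.77, 7.42 and 7.16 RPKM against 7.23, 7.81 and 8.06 RPKM, overlapping (0.011 ± 0.069, adjusted p = 0.947). In Foxk2 knockdown it had 10.4 and 10.7 RPKM against 8.95 and 7.64 RPKM (0.34 ± 0.085, adjusted p = 0.00563). It rested on 183 to 664 reads per library. Of 10 skeletal muscle markers listed, 8 were too low to be tested and the myogenic factors Myod1, Myog and Myf5 were at 0 in all 20 libraries. Their summed level was 5.69 to 14.5 RPKM, and 2 were tested. Des was higher under both overexpression labels and lower in both knockdowns, while Acta1 was lower in the libraries labelled Foxk1 overexpression (log2 fold change -0.67, adjusted p = 0.00165) and did not pass in the other 3 comparisons (-0.33 in Foxk1 knockdown, -0.46 with Foxk2 overexpressed and 0.079 in Foxk2 knockdown). Eno3 lost its call in Foxk2 knockdown without scrambled-shRNA library 2 (0.23, adjusted p = 0.101) and in a model of those libraries alone (adjusted p = 0.0883).

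Eno2 (ENSMUSG00000004267.16, chromosome 6, 124760053 to 124769673, minus strand), the neuronal enolase, was low, with 27 to 77 reads per library. It had 0.489, 0.457 and 0.544 RPKM in the libraries labelled Foxk1 overexpression against 0.555, 0.515 and 0.419 RPKM in their controls, and 0.193 and 0.183 RPKM in Foxk2 overexpression against 0.217 and 0.179 RPKM in its controls. Both comparisons overlapped (log2 fold changes 0.0023 ± 0.098 and -0.021 ± 0.12 SE). In Foxk1 knockdown it had 0.730, 0.635 and 0.845 RPKM against 0.655, 0.708 and 0.458 RPKM, again overlapping (0.16 ± 0.098, adjusted p = 0.221). In Foxk2 knockdown it had 0.522 and 0.449 RPKM against 0.262 and 0.255 RPKM, a rise of 0.38 ± 0.12 (adjusted p = 0.0242). That call was lost without scrambled-shRNA library 1 (adjusted p = 0.0823) or 2 (0.0983) or knockdown library 1 (0.139), and with quantile normalization (0.0557), the length and GC trend removed (0.0691) or a replicate block (0.0876). The ratio of the mean RPKM values there was 1.88, above the fitted fold of 1.30, since the values lie near the pseudocount. None of 8 neuronal markers reached the level for testing, and their summed level was at most 1.34 RPKM.

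**Figure D3:**
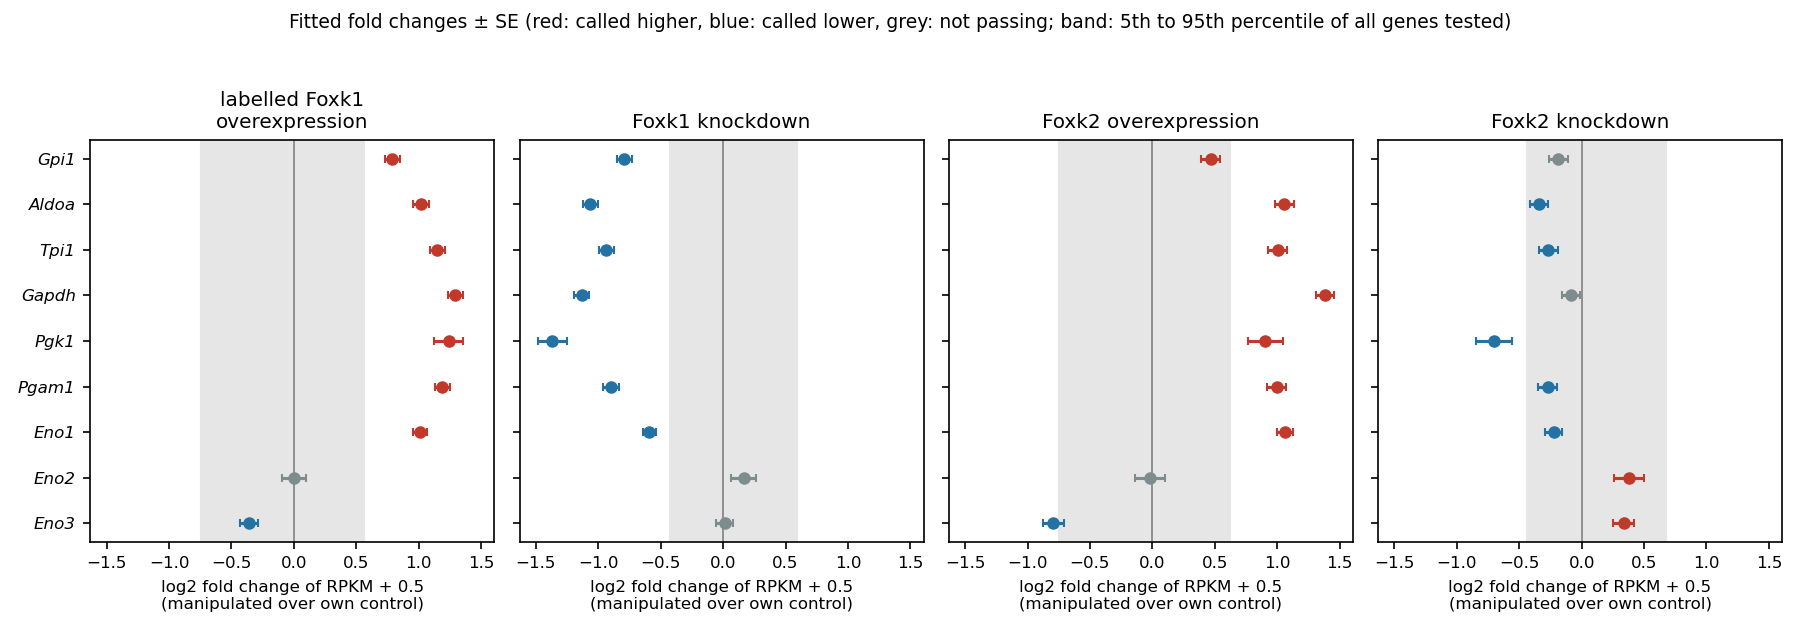
Fitted log2 fold changes of RPKM + 0.5 with their SE for the 9 enzyme genes tested, in pathway order from the top, in each comparison of a manipulation with its own controls; red marks genes called higher, blue lower and grey not passing, and the band spans the 5th to 95th percentile of all genes tested. The 7 main isozymes lie between 0.79 and 1.29 in the libraries labelled Foxk1 overexpression, outside the band, and between -0.70 and -0.085 in Foxk2 knockdown, where only Pgk1 lies outside it.

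The log2 ratio of Eno3 to Eno1 was -4.17 ± 0.082 in the libraries labelled Foxk1 overexpression and -2.77 ± 0.14 in their controls, and -2.05 ± 0.18 in Foxk1 knockdown and -2.66 ± 0.16 in its controls (SD, n = 3 each). It was -2.95 ± 0.048 in Foxk2 overexpression and -1.02 ± 0.12 in its controls, and -0.92 ± 0.049 in Foxk2 knockdown and -1.50 ± 0.25 in its controls (SD, n = 2 each). The ranges of this ratio were apart in all 4 comparisons (as were the levels of 52.3, 44.2, 70.3 and 67.2% of all single genes), with the manipulated libraries below their controls under both overexpression labels and above them under both knockdowns. The ratio of Eno2 to Eno1 did the same, with differences of -1.008, 0.894, -1.148 and 1.135 in the libraries labelled Foxk1 overexpression, Foxk1 knockdown, Foxk2 overexpression and Foxk2 knockdown. In two-sided exact permutation tests p was 0.1 with 3 libraries against 3 and 0.333 with 2 against 2, the smallest values these designs allow, so that no ratio could pass, and over the 8 tests the adjusted p was 0.2 and 0.333. In the fits of single genes Eno1 was called in all 4 comparisons. Eno2 did not pass under either overexpression label (log2 fold changes 0.0023 and -0.021) or in Foxk1 knockdown (0.16). Eno3 did not pass in Foxk1 knockdown (0.011). In those comparisons only Eno1 of the pair was called. Eno1 carries copies that Eno3 and Eno2 lack. No ratio of Aldoc to Aldoa was formed, because Aldoc had 0 reads in some libraries.

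**Figure D4:**
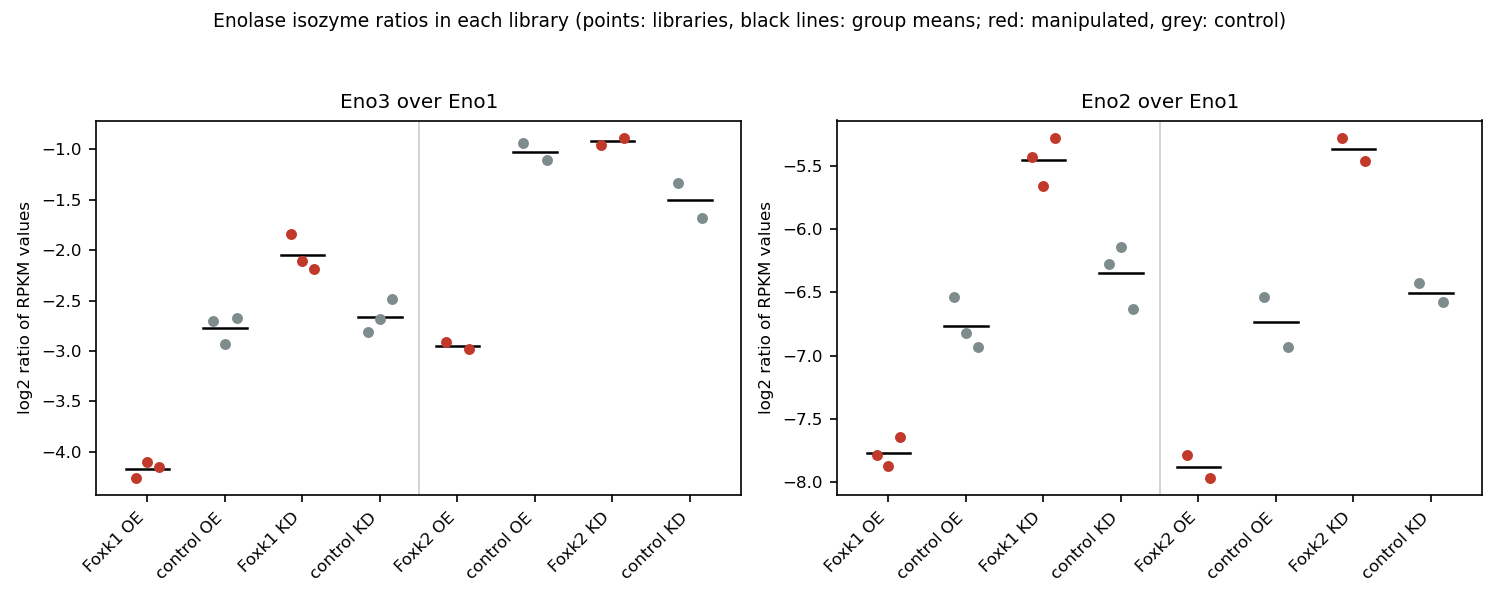
Log2 ratios of RPKM values of Eno3 to Eno1 (left) and Eno2 to Eno1 (right) in each library, with manipulated libraries in red left of their controls in grey; points are libraries and black lines group means. In the left panel the mean is -4.17 in the libraries labelled Foxk1 overexpression against -2.77 in their controls and -2.95 in Foxk2 overexpression against -1.02 in its controls, and it lies above the controls in both knockdowns.

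The size of the response was compared between the factors as the difference of the fold changes in the same model. The 2 sets also differ in depth, number of libraries and the reads on copies, and these cannot be told apart from the factor. Between the overexpression labels 2 of 9 genes differed, where 25.1% of all genes tested did. They were Gpi1 (Foxk1 minus Foxk2 0.32 ± 0.095 SE, adjusted p = 0.0227) and Eno3 (0.44 ± 0.11, adjusted p = 0.0087). The call for Gpi1 was lost without Foxk1 empty-vector library 1 (0.26, adjusted p = 0.0512), without Foxk2 empty-vector library 2 (0.30, adjusted p = 0.0852) or without Foxk2 overexpression library 1 (0.25, adjusted p = 0.109). Differences of the other 7 lay between -0.092 (Gapdh) and 0.34 (Pgk1). Pgam1 passed without Foxk1 empty-vector library 2 (0.28, adjusted p = 0.0141) or Foxk2 empty-vector library 1 (0.30, adjusted p = 0.049), and Pgk1 without Foxk2 overexpression library 2 (0.55, adjusted p = 0.0485).

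Between the knockdowns 7 of 9 genes differed, where 14.3% of all genes tested did, 6.68% with a higher and 7.63% with a lower value in Foxk1 knockdown. All 7 main isozymes fell more in Foxk1 knockdown than in Foxk2 knockdown. The difference was largest for Gapdh (-1.05 ± 0.095 SE, adjusted p = 8.74e-06) and was -0.72 ± 0.096 for Aldoa (adjusted p = 0.000163) and -0.67 ± 0.099 for Tpi1 (adjusted p = 0.000357). It was smallest among those called for Eno1 (-0.37 ± 0.084, adjusted p = 0.00851). For Pgk1 (-0.66 ± 0.18, adjusted p = 0.0246) the call was lost without any 1 of 5 libraries. These were library 2 of the Foxk1 controls (-0.62, adjusted p = 0.0528), Foxk1 knockdown library 3 (-0.61, adjusted p = 0.0515), libraries 1 and 2 of the Foxk2 controls (-0.62 and -0.70, adjusted p = 0.0887 and 0.062) and Foxk2 knockdown library 2 (-0.46, adjusted p = 0.133). The call for Eno1 was lost without library 1 of the Foxk2 controls (-0.31, adjusted p = 0.0534) or after correction for gene length and GC (-0.24, adjusted p = 0.0936). Pgk1 lost its call with no filter as well (adjusted p = 0.0543). Foxk1 fell to 0.391 of its control mean in Foxk1 knockdown and Foxk2 to 0.253 of its control mean in Foxk2 knockdown. Eno2 (-0.21 ± 0.16, adjusted p = 0.41) and Eno3 (-0.33 ± 0.11, adjusted p = 0.0592) did not pass, but Eno3 did without library 1 of the Foxk1 controls (-0.37, adjusted p = 0.0467), Foxk1 knockdown library 1 (-0.41, adjusted p = 0.00998) or library 1 of the Foxk2 controls (-0.43, adjusted p = 0.028).

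Calls in Foxk2 knockdown were the least stable. Without scrambled-shRNA library 2 of that set none of the 9 genes was called higher and 2 were called lower, and without Foxk2 knockdown library 2 there were 2 called lower. Without scrambled-shRNA library 1 or knockdown library 1, 1 gene was called higher.

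Other genes of the pathway, in a list of 28 that runs from glucose entry to lactate export, were also counted. Of 23 tested, 14 were higher, 3 lower and 6 not passing in the libraries labelled Foxk1 overexpression, and 3 higher, 16 lower and 4 not passing in Foxk1 knockdown, where 1 was higher without knockdown library 1 or 3 and under 6 other alternatives. In Foxk2 overexpression 17 were higher, 2 lower and 4 not passing, and in Foxk2 knockdown 2 were higher, 13 lower and 8 not passing. Their median log2 fold changes were 0.43, -0.44, 0.45 and -0.26 in that order, smaller in size than the enzymes' medians in the first 3, and with no filter on low values they were 0.19 in the libraries labelled Foxk1 overexpression and -0.25 in Foxk1 knockdown. All genes were called higher in 24.1, 20.4, 23 and 18% and lower in 23.8, 15.5, 22 and 15.7% in that order.

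Ldha, which turns pyruvate into lactate, averaged 614 ± 16.0 RPKM in the libraries labelled Foxk1 overexpression and 265 ± 38.6 RPKM in their controls, and 86.9 ± 3.14 RPKM in Foxk1 knockdown and 224 ± 14.3 RPKM in its controls (SD, n = 3 each). Pdk1, the kinase that holds back pyruvate dehydrogenase, had log2 fold changes of 1.16, -1.33, 1.31 and -0.88 in the 4 comparisons and passed in each. The muscle-and-fat hexokinase Hk2 was higher in Foxk2 overexpression (124.6 ± 3.38 RPKM against 52.0 ± 0.680 RPKM in its controls, SD, n = 2 each). Pfkl, the liver-type phosphofructokinase just upstream of aldolase, had the largest fall of the list in Foxk1 knockdown (-1.38 ± 0.081 SE). The insulin-responsive glucose transporter Slc2a4 and the lactate carrier Slc16a1 were among the 3 largest changes in Foxk2 knockdown (-0.91 ± 0.072 and -0.82 ± 0.078 SE), with Pdk1.

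**Figure D5:**
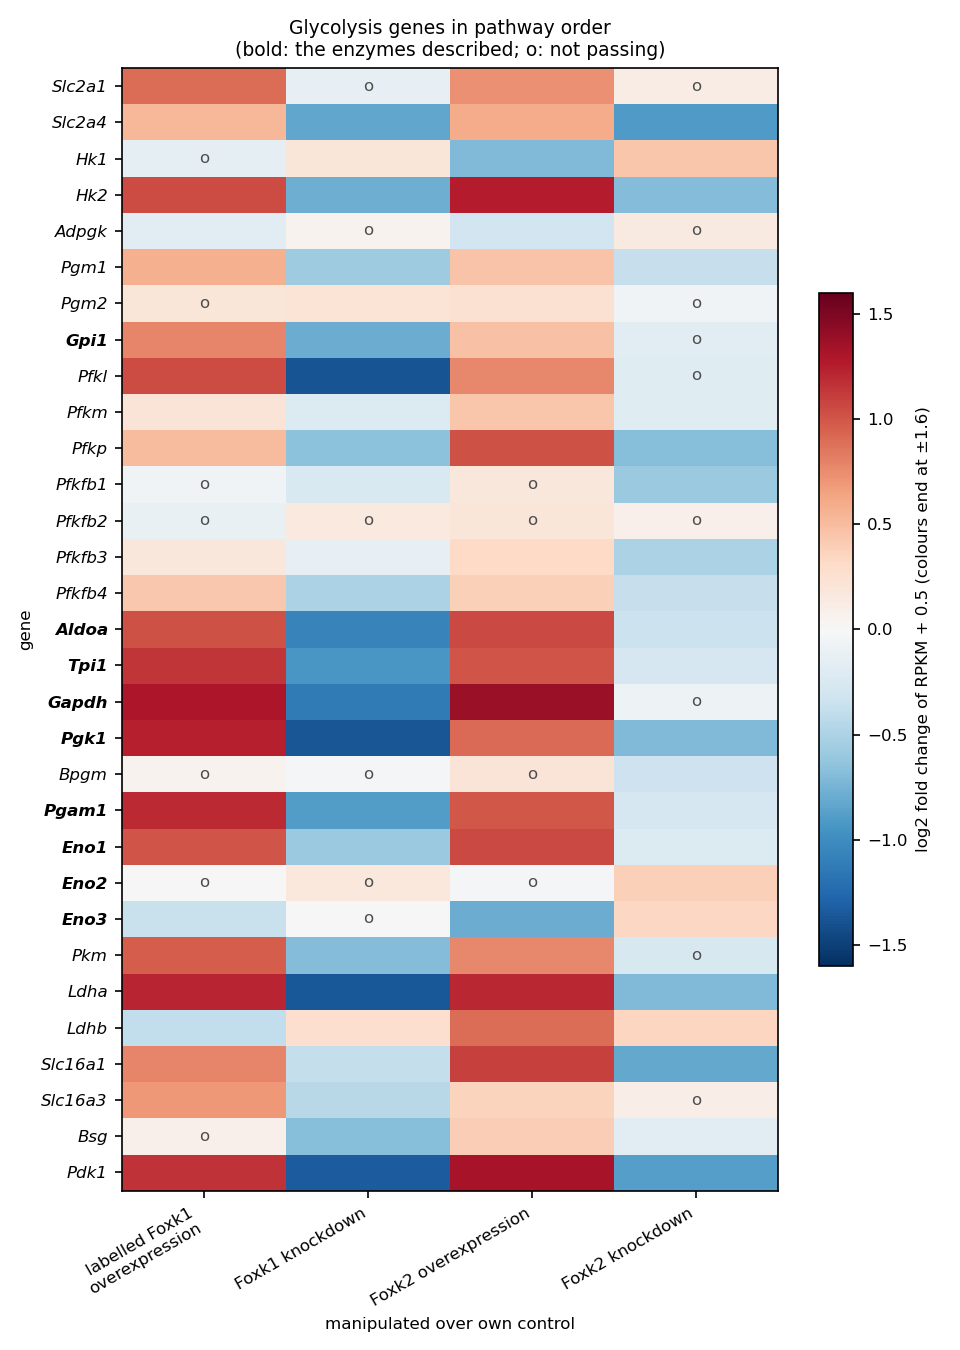
Log2 fold changes of RPKM + 0.5 for glycolysis genes tested and reported here, in pathway order from glucose entry at the top to lactate export and Pdk1 at the bottom, with 1 column per comparison of a manipulation with its own controls; red is higher, blue lower, an open circle marks genes that did not pass, and bold names are the enzymes described here. Gapdh, Pgk1, Ldha and Pdk1 are red under both overexpression labels and blue in Foxk1 knockdown, and the column of Foxk2 knockdown is paler.

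Other isozymes of the same steps were mostly low. Aldoart1, an aldolase retrogene, was at 0 in every group of the Foxk1 set, at 28.1 ± 1.18 RPKM in Foxk2 overexpression against 13.5 ± 0.951 RPKM in its controls, and at 12.8 ± 0.0637 RPKM in Foxk2 knockdown against 16.4 ± 0.265 RPKM in its controls (SD, n = 2 each). Its folds, 2.05 and 0.785, lay beside those of Aldoa, 2.08 and 0.789, and whether its reads come from Aldoa was not tested. Pgam2, the muscle mutase, did not pass in any comparison (adjusted p between 0.136 and 0.984), at mean levels of 6.61 to 8.14 RPKM.

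All 10 fibroblast and preadipocyte markers listed were lower under both overexpression labels (23.8 and 22% of all genes were) and higher under both knockdowns (20.4 and 18% were). Their summed level was 306 to 321 RPKM in the libraries labelled Foxk1 overexpression against 851 to 1016 RPKM in their controls, and 2823 to 2976 RPKM in Foxk1 knockdown against 1554 to 1681 RPKM in its controls. It was 293 to 313 RPKM in Foxk2 overexpression against 714 to 732 RPKM in its controls, and 1344 to 1410 RPKM in Foxk2 knockdown against 473.6 RPKM in both of its controls. The median log2 fold change of the list was 0.79 in Foxk1 knockdown and 1.63 in Foxk2 knockdown, against -0.90 and -0.22 for the enzymes. The 12 adipocyte markers, which include Slc2a4, did not follow the enzymes. In the libraries labelled Foxk1 overexpression 2 were higher and 8 lower, in Foxk1 knockdown none was higher and 8 were lower, in Foxk2 overexpression 3 were higher and 8 lower, and in Foxk2 knockdown 1 was higher and 5 were lower (2 in a model of those libraries alone). Their median log2 fold change was below 0 in all 4 comparisons, at -0.32, -0.32, -0.55 and -0.15. Of all genes, 24.1, 20.4, 23 and 18% were called higher and 23.8, 15.5, 22 and 15.7% lower in the same order. The part of either list in the enzyme values was not tested.

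Of 14 hypoxia-response genes that are not glycolysis enzymes, 13 were higher and 1 lower (Adm) in the libraries labelled Foxk1 overexpression, and 2 were higher and 11 lower in Foxk1 knockdown. In Foxk2 overexpression 11 were higher and 1 lower, and in Foxk2 knockdown 3 were higher and 6 lower, where 18% of all genes were higher and 15.7% lower. The shares of all genes called higher in the first 3 comparisons were 24.1, 20.4 and 23%, and of those called lower 23.8, 15.5 and 22%. Their summed level was 1251 to 1284 RPKM in the libraries labelled Foxk1 overexpression against 662 to 819.8 RPKM in their controls, and 275 to 279.6 RPKM in Foxk1 knockdown against 584 to 638 RPKM in its controls. In the Foxk2 set it was 616 to 663 RPKM in overexpression against 367 to 370.4 RPKM in its controls, and 310.3 to 317 RPKM in knockdown against 445 to 462 RPKM in its controls. Their part in the enzyme values was not tested.

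Genes outside the pathway with the most similar pattern were sought among 9196 with a mean of at least 2 RPKM. The enzymes themselves, the other pathway genes listed and genes with predicted, clone or pseudogene names were left out beforehand. Nearness was the largest gap between log2 fold changes over the 4 comparisons. Nearest to the median of Gpi1, Aldoa, Tpi1, Pgam1, Eno2 and Eno3 were Higd1a (gap 0.12), mt-Tl2 (0.17), Ppp1r15a (0.22), Zbtb18 (0.23) and Mt2 (0.24). By Euclidean distance (the root of the summed squared gaps), 3 of these 5 stayed among the 5 nearest. Higd1a had log2 fold changes of 0.78, -0.81, 0.76 and -0.35, against 0.90, -0.84, 0.73 and -0.23 for that median. The median was meant to leave out genes with near-identical copies, but Gpi1 and Pgam1 each have 1 such row. It includes Eno2 and Eno3, which were not called higher under either overexpression label. Nearest to Eno3 were Arrb2 (0.049), Ccdc9b (0.054), Tcf7l1 (0.067), Slc20a2 (0.075) and Naa80 (0.084). Nearest to Pgam1 among these were Pla2g2e (0.092), Unc5b (0.17), Mt2 (0.30), Idi1 (0.32) and Mthfd1l (0.33), and 3 of these 5 stayed by Euclidean distance. Tpi1, left out by the rule, lay closer to Pgam1 than these. Its log2 fold changes were 1.15, -0.94, 1.00 and -0.27, against 1.19, -0.90, 1.00 and -0.27 for Pgam1.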

How the data were processed

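RNA sequencing of 20 libraries was analysed from 1 table of RPKM values, which the authors deposited for 48440 GENCODE genes. Tools named per the submitters' processing notes are HISAT2 2.1.0, the build mm10, Picard 1.141, Subread 1.5.1 (featureCounts) and edgeR; strand and the handling of reads with several matches are not given in the sources used here. RPKM values and exon lengths gave whole reads within 0.1 read for 100% of 318890 values above 0 in genes whose identifier version matches GENCODE M21, which gave the depth. For 5367 other genes, Aldoa and Pgam1 among them, the shortest length giving whole reads was used (1 gene was not recovered), so their read numbers, but not their RPKM, rest on that search. The limit of 3 reads for a count of 0 covers counting error only.

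Values were log2(RPKM + 0.5); 15981 genes with 0.5 RPKM or more in 2 libraries were fitted in limma 3.58.1 (R 4.3.3) with 8 group means, a mean trend and 12 residual degrees of freedom, two-sided, Benjamini-Hochberg adjusted over all genes. Errors are model SE for fold changes and SD between libraries for levels. Copies were searched in GENCODE M21 transcripts with BLAST+ 2.17.0; Python 3.11.15 with pandas 2.3.3, SciPy 1.17.1 and matplotlib 3.10.9 did the rest. The fit was tried on simulated counts with the same spread for all genes, which does not test its error rates in these libraries. Replicate numbers did not pair the libraries.

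Members and gene lists were chosen with earlier results of these data known. Named were all members, the 3 largest called changes of the other pathway genes in each comparison (1 of these is not reported here) and the 5 nearest genes; Adm, Aldoart1, Pgam2, Acta1, Des, the copies and the overlapping genes were named after their values were seen. Alternatives were other filters, pseudocounts, scalings, models, voom on recovered reads, a replicate block, members summed with copies, and each library left out. Voom on the recovered reads called 7424, 5564, 7964 and 6349 genes in the libraries labelled Foxk1 overexpression, Foxk1 knockdown, Foxk2 overexpression and Foxk2 knockdown, against 7643, 5734, 7188 and 5386 in the main model.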

Additional observations from a re-analysis of the deposited data

Results flagged for a closer look

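Differences between the effects of the factors passed the test for 9 pairs of values, each a difference of log2 fold changes (Foxk1 minus Foxk2) in limma. Between the overexpression labels these were Gpi1 at 0.32 (0.79 in the libraries labelled Foxk1 overexpression and 0.47 in Foxk2 overexpression) and Eno3 at 0.44 (-0.36 and -0.80 in the same order). Between the knockdowns, the fall was larger in Foxk1 knockdown for Gpi1 (-0.60), Aldoa (-0.72), Tpi1 (-0.67), Gapdh (-1.05), Pgk1 (-0.66), Pgam1 (-0.63) and Eno1 (-0.37). These differences cross sets of libraries that differ in depth and in the reads on copies, and with copies added Gapdh gave -1.17 and Eno1 -0.43. No group held 4 or more libraries, so single libraries were not tested as outliers.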

How the results depend on the processing

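Over all alternatives, calls of single enzyme genes held in 160 of 160 values in the libraries labelled Foxk1 overexpression, 140 of 140 in Foxk1 knockdown, 143 of 144 in Foxk2 overexpression (Pgk1 was lost) and 106 of 125 in Foxk2 knockdown, and none changed direction. The number of enzyme genes called higher in Foxk2 knockdown was 1, against 2, with a filter at a mean of 1 RPKM, quantile normalization, a length and GC trend removed, the libraries of that comparison alone, or a replicate block, and 0 to 2 with 1 library left out. The number called lower there was 2 to 5 with 1 library left out. The number differing between overexpression labels was 1 with the length and GC trend removed and 1 to 3 with 1 library left out. The difference in the Eno2 to Eno1 ratio in Foxk2 knockdown was 0.60 with a pseudocount of 0.5, by construction smaller for a gene this low.

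Directions turned only among values that had not passed. For the difference between overexpression labels, Gapdh gave 0.059 with a pseudocount of 1, 0.0028 with quantile normalization and 0.042 with copies added; quantile normalization also gave 0.30 for Aldoa, -0.011 for Tpi1 and -0.036 for Pgam1, and the length and GC trend gave -0.11 for Eno2. Eno2 gave -0.00034 in the libraries labelled Foxk1 overexpression with median-ratio scaling, and 0.016 (quantile) and 0.12 (length and GC) in Foxk2 overexpression. Eno3 in Foxk1 knockdown gave -0.019 (median-ratio) and -0.028 (quantile). With 1 library left out, the label difference ranged from -0.099 to 0.043 for Aldoa, -0.19 to 0.0059 for Gapdh, -0.10 to 0.0077 for Eno1 and -0.034 to 0.066 for Eno2. Eno2 then ranged from -0.055 to 0.045 in the libraries labelled Foxk1 overexpression and -0.061 to 0.019 in Foxk2 overexpression, and Eno3 from -0.073 to 0.064 in Foxk1 knockdown. The cause was not tested.

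Same-numbered libraries did not deviate together (r from -0.086 to 0.033 over 10 pairs). With 2 libraries per group, both pairs of a Foxk2 comparison give the same r by construction, so the pairs are not all separate checks. A replicate block called 7335, 5350, 6827 and 4960 genes in the 4 comparisons, and Eno2 in Foxk2 knockdown no longer passed (adjusted p = 0.0876). Depth limits Aldoc, at 0 to 7 reads, and Eno2, at 27 to 77.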
